A study of Mus musculus with 16 samples.

Results

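The genes of coenzyme A supply and breakdown were followed through the livers of fasted and refed mice. They were taken by exact gene symbol, as Pank1, Pank2, Pank3, Pank4, Ppcs, Coasy, Vnn1, Vnn3, Nudt7 and Nudt19, which gave 10 genes among the 25803 in the deposited count tables. All 10 passed the filter on low counts and were tested. The data are bulk RNA sequencing of whole liver from male mice kept on a high-fat diet (HFD) for 12 weeks, in 16 libraries with 4 in each of 4 groups. Mice of genotype Control, called WT in the series' design, and of genotype CPT1a LKO, a knockout of Cpt1a in the liver, were necropsied either fasted for 16 h or, following that fast, refed for 6 h. The groups are called fasted control, fasted LKO, refed control and refed LKO. The high-fat diet, the male sex and the 16 h fast are common to all 4 groups, so the refed groups are also fasted-then-fed. The age of the mice, the strain and the way the knockout was made are not given in the sources used here. Libraries are named S40 to S55 as in the tables, and their columns carry no replicate number.

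Coenzyme A carries fatty acids and other acyl groups through oxidation, ketone body formation and lipid synthesis. It is built from vitamin B5 (pantothenate): a pantothenate kinase commits the vitamin to the pathway, a synthetase and a decarboxylase add and trim cysteine, and a bifunctional synthase completes the molecule. Its breakdown runs through Nudix hydrolases, which cut coenzyme A to a phosphopantetheine and an adenosine phosphate, and through pantetheinases outside the cytosol, which return pantothenate and release cysteamine. In liver the pool is known to be larger in the fasted than in the fed state. Cpt1a encodes the enzyme that passes long-chain acyl groups from coenzyme A to carnitine for entry into mitochondria.

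Sequences of microRNAs and of promoters belong to these genes. Pank1, Pank2 and Pank3 carry microRNAs within their spans, each with a -5p and a -3p mature form. The -3p forms are printed because a single base separates the one in Pank1 from the one in Pank2 and Pank3. In RefSeq on build GRCm38.p6, miR-107-3p lies at chr19:34820700-34820722 on the minus strand within the Pank1 span. The same table places miR-103-3p at chr2:131288103-131288125 within Pank2 and at chr11:35782447-35782469 within Pank3, both on the plus strand. Capitals mark the seed, bases 2 to 8, which is GCAGCAU in both.
miR-107-3p: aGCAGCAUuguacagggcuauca
miR-103-3p: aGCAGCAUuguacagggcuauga
The difference, counted from the 5′ end and written from miR-103-3p to miR-107-3p, is G22C. These libraries were made from poly-A RNA and do not measure mature microRNAs, so only the host genes have levels below.

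Promoters are shown for genes that changed on refeeding of LKO mice. RefSeq windows of 300 bases, from 250 before to 50 after each start on GRCm38.p6, were matched by symbol for 8 of the 10 genes, with 12 windows in all; Coasy and Vnn1 had none. Printed are 5 windows, those of Pank1 and Ppcs, which fell, and those of Pank3 and the first start of Nudt7, which rose. Capitals mark matches, on either strand, to any of the motifs searched: AGGTCA (the nuclear receptor motif), the DR1 repeat (that motif in 2 copies, the same way round and 1 base apart, so that each DR1 also holds it), GTAAACA (forkhead), CACGTG (E-box), TGACGTCA (CRE), TCACCCCAC (a sterol element), GGGCGG (GC box), CCAAT and TATAAA. The first Pank1 window spans chr19:34879406-34879705 and the second chr19:34877868-34878167, both on the minus strand. The Ppcs window spans chr4:119422371-119422670 on the minus strand, the Pank3 window chr11:35769245-35769544 on the plus strand and the Nudt7 window chr8:114133368-114133667 on the plus strand.
Pank1, first start: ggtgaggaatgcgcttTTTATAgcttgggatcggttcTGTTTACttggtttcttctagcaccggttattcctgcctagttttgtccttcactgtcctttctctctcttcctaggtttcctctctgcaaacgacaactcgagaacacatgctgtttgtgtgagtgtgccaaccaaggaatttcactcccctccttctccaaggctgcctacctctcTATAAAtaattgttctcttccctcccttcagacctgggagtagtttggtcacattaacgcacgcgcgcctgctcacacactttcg
Pank1, second start: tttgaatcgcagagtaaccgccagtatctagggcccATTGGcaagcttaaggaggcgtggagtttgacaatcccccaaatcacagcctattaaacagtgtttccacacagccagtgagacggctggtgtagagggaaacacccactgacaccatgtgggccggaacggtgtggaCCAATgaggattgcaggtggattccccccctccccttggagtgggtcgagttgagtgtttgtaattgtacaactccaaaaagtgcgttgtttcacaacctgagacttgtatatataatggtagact
Ppcs: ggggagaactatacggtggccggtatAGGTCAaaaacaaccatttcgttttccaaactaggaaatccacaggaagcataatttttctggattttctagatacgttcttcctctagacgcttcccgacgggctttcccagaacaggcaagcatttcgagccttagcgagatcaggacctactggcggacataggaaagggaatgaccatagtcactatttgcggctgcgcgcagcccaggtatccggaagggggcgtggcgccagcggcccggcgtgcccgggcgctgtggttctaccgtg
Pank3: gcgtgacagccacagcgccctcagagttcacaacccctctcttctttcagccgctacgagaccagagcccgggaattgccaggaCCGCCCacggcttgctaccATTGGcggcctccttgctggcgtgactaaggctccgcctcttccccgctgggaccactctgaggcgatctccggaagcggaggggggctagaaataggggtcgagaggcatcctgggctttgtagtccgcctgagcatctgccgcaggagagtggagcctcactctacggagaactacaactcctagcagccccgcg
Nudt7, first start: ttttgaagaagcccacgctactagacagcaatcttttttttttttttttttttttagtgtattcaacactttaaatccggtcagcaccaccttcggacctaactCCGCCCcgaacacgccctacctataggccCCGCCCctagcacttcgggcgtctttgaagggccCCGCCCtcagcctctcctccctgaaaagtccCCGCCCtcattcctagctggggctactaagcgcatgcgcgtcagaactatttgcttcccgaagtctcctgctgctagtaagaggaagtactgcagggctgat
In the first Pank1 window the forkhead match began at -213 from the start, on the opposite strand. TATAAA matches began there at -35 and, on the opposite strand, at -234. The second window held CCAAT matches at -76 and, on the opposite strand, at -214. The Ppcs window held 1 match, AGGTCA at -224. The Pank3 window held a GC box at -166 and a CCAAT match at -147, both on the opposite strand. The Nudt7 window held 4 GC boxes, beginning at -146, -117, -83 and -52, all on the opposite strand. Among 32851 windows of the same length, GTAAACA was found in 3.65%, AGGTCA in 16.3%, TATAAA in 13.6%, CCAAT in 37.4% and GGGCGG in 35.7%. The DR1 repeat (0.0396%), E-box (7.15%), CRE (1.79%) and sterol element (0.551%) had no match in the 12 windows of these genes. A match is a run of letters and not a bound site.

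Library totals ran from 14721601 to 24618230 counts. Levels are in CPM, which are counts scaled to a common library size after TMM adjustment of the totals, as mean ± SD with n = 4. The targeted gene, Cpt1a, had 487 ± 83.2 CPM in fasted control livers against 101 ± 17.3 CPM with the knockout. Its refed levels were 457 ± 137 CPM without and 54.2 ± 16.6 CPM with the knockout, and the genotypes overlapped in neither state. All 8 hepatocyte markers listed were tested, and their summed level exceeded that of every other cell type list. It was 69441 to 77262 CPM in fasted control and 57919 to 66493 CPM in fasted LKO livers, without overlap, and 66835 to 87873 and 59245 to 72983 CPM in refed control and refed LKO livers. Summed adipocyte markers were 9.81 to 58.1 CPM in fasted control and 0.448 to 9.63 CPM in fasted LKO livers, and 2.50 to 33.1 and 0.563 to 3.46 CPM in the refed pair, with Lep at 0 in every group but fasted control and Adipoq at 0 in refed control. Markers called in the fasted genotype comparison were Ttr of hepatocytes, Cfd of adipocytes and Alas2 of red cells, all lower in LKO livers, and Dcn of stellate cells, higher. Of the 7 stellate cell markers, 4 had higher and 3 lower estimates in fasted LKO livers. Their summed level overlapped, at 161 to 321 CPM in fasted control and 187 to 298 CPM in fasted LKO livers. The part of these markers in the results below was not tested.

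**Figure D1:**
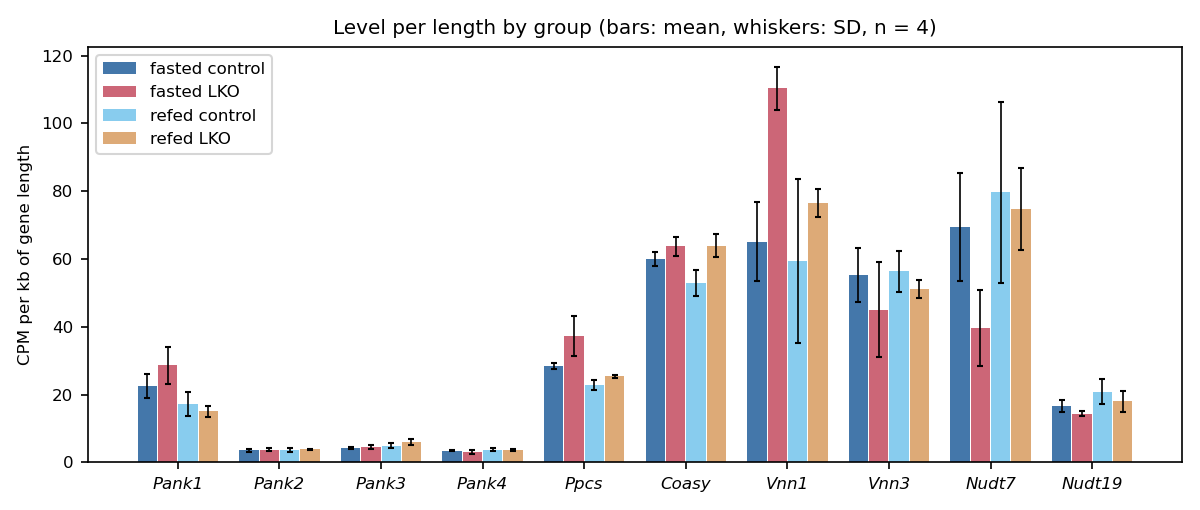
Level of each gene per length, in CPM per kb of the authors' gene length, for the 4 groups. Bars are means and whiskers SD (n = 4). Vnn1 in fasted LKO livers is the tallest bar at 110.3, and Pank2, Pank3 and Pank4 stay under 7 in every library.

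Levels can be set against each other only per length, so CPM were divided by the authors' gene length in kb. In fasted control livers Nudt7, Vnn1, Coasy and Vnn3 led with 69.4 ± 15.9, 65.1 ± 11.6, 60.0 ± 2.05 and 55.3 ± 7.99 CPM per kb, and each overlapped its neighbour in the order. Ppcs followed at 28.5 ± 0.91 CPM per kb, apart from both Vnn3 above and Pank1 below. Pank1 at 22.6 ± 3.51 and Nudt19 at 16.7 ± 1.82 CPM per kb overlapped. Pank3, Pank2 and Pank4 came last at 4.16 ± 0.30, 3.52 ± 0.37 and 3.48 ± 0.19 CPM per kb, with overlapping ranges. The order differed in fasted LKO livers: Vnn1 stood first at 110.3 ± 6.34 CPM per kb, apart from Coasy at 63.7 ± 2.80, and Nudt7 stood at 39.5 ± 11.2, with a range that overlapped those of Vnn3 above and Ppcs below. In the refed groups Nudt7 and Vnn1 were again the upper pair by mean with overlapping ranges, at 79.7 ± 26.7 and 59.4 ± 24.1 CPM per kb in control and 74.6 ± 12.1 and 76.6 ± 4.10 CPM per kb in LKO livers. The pair was not set apart from the next gene. Vnn1 overlapped Vnn3, at 56.3 ± 6.11 CPM per kb, in refed control livers. Nudt7 overlapped Coasy, at 63.9 ± 3.49 CPM per kb, in refed LKO livers. Pank2, Pank3 and Pank4 stayed last in all 4 groups.

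**Figure D2:**
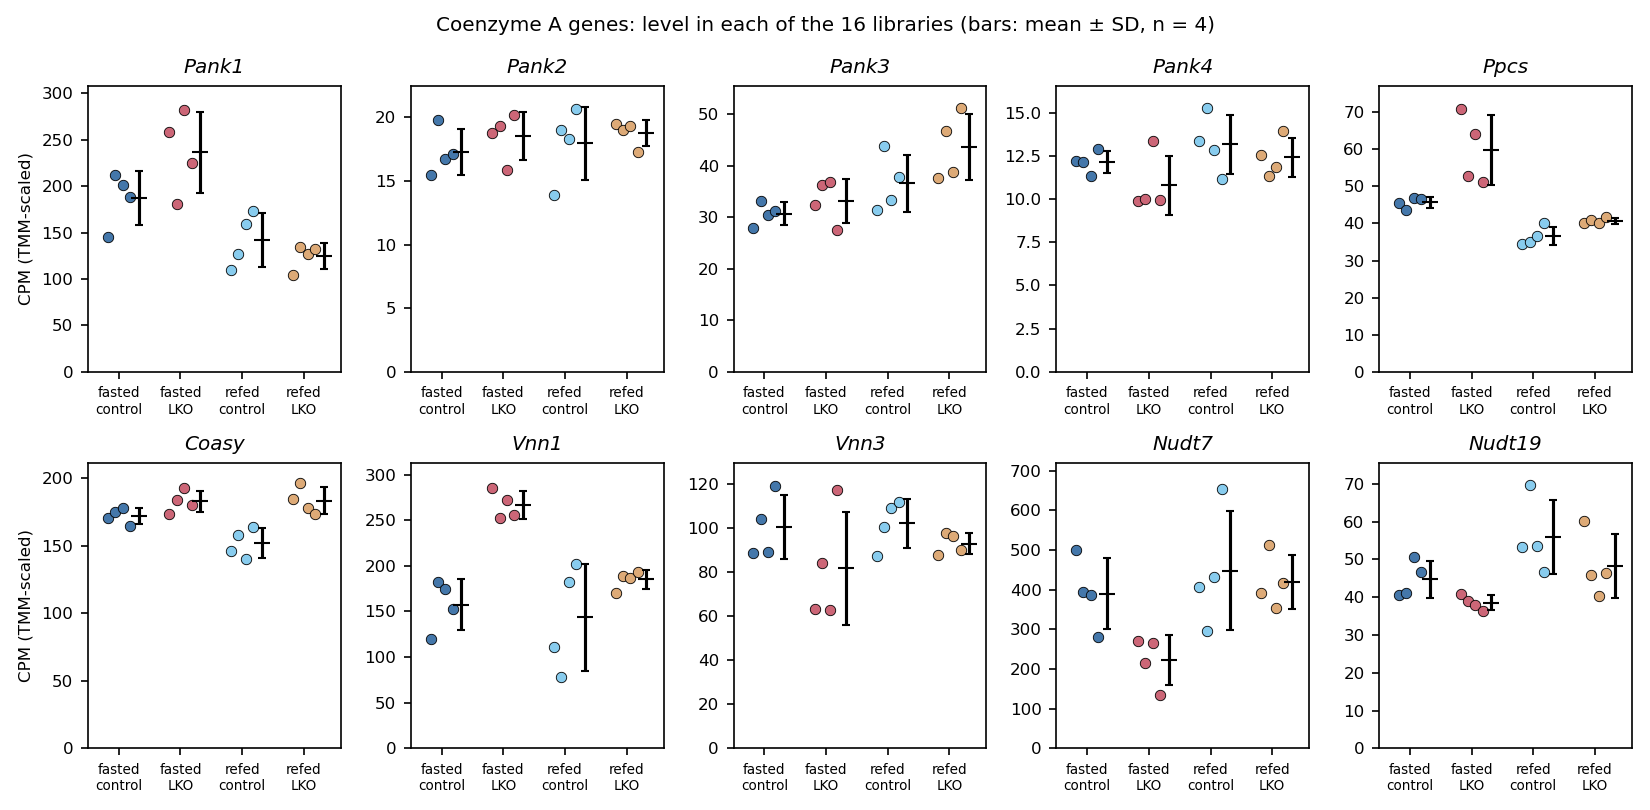
CPM of each gene in each library, by group; points are libraries in the order S40 to S55, and bars are mean ± SD (n = 4). The 4 fasted LKO libraries lie above all fasted control libraries for Ppcs and Vnn1 and below them for Nudt7.

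Loss of Cpt1a in the fasted state went with higher Ppcs and Vnn1 and lower Nudt7. Ppcs, the synthetase that joins cysteine to phosphopantothenate, was 1.31-fold higher. Vnn1, a pantetheinase, was 1.69-fold higher, and Nudt7, a peroxisomal coenzyme A hydrolase, was at 0.570 times its control level. These were 3 of 10 genes called at an edgeR adjusted p under 0.05, against 12.2% of all 14488 genes tested. By direction, 2 of 10 were higher against 5.75% of all genes and 1 of 10 was lower against 6.48%. In a bulk sample, fewer cells of a type and less RNA per cell cannot be told apart. The median log2 fold change was 0.09 over the 10 genes and 0.02 over all genes.

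Among the kinases of the first step, Pank1, whose span in the deposited tables is chr19:34784340-34856855 on the minus strand, measured 146, 212, 202 and 188 CPM in fasted control livers. In fasted LKO livers it measured 259, 180.3, 281 and 225 CPM. Only S45 of the LKO libraries lay within the control range, and the difference of 0.34 (SE 0.16) on the log2 scale did not pass (edgeR adjusted p = 0.187). Pank3 (chr11:35660311-35682112) measured 27.9, 33.2, 30.5 and 31.3 CPM against 32.3, 36.2, 36.8 and 27.5 CPM, and these ranges overlapped. Its log2 difference was 0.11 (SE 0.12). Pank2 and Pank4 differed by 0.10 (SE 0.12) and -0.17 (SE 0.12) on the log2 scale with overlapping ranges. Pank4 is the family member generally regarded as lacking kinase activity. Counts of Pank2 are uncertain, since 20.9% of its 50-base words are shared with the overlapping antisense gene Rnf24 and the use of strand in counting is not given in the sources used here. Rnf24 itself had 848 counts in all libraries against 5237 for Pank2.

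Ppcs, at chr4:119275727-119279617 on the minus strand, measured 45.6, 43.7, 46.9 and 46.6 CPM in fasted control livers. In fasted LKO livers it measured 70.8, 52.7, 64.1 and 51.2 CPM. The control libraries lay within a few CPM of each other and all 4 LKO libraries lay above them. The log2 difference was 0.38 (SE 0.09), with an edgeR adjusted p of 0.0122. Coasy, the bifunctional synthase of the closing steps (chr11:100973391-100977445), measured 170.2, 175, 178 and 165 CPM against 174, 184, 193 and 180.4 CPM. Its ranges overlapped, and the log2 difference of 0.09 had a 95% interval from -0.07 to 0.24.

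Vnn1, at chr10:23770586-23781241 on the plus strand, encodes a membrane-anchored pantetheinase and is a known target of the fatty acid receptor PPARA. It measured 119, 182, 175 and 153 CPM in fasted control livers. In fasted LKO livers it measured 285, 252, 273 and 256 CPM. The lowest LKO library stood well above the highest control library, S41. Its difference on the log2 scale was 0.76 (SE 0.22), with an edgeR adjusted p of 0.0294. Its neighbour Vnn3 (chr10:23727360-23745741), another pantetheinase gene, measured 88.6, 104, 89.1 and 119 CPM against 63.1, 84.0, 62.6 and 117 CPM. Library S47 alone among the LKO libraries lay high, within the upper part of the control range, while S44, S45 and S46 lay below all controls. The log2 difference of -0.30 (SE 0.16) did not pass with all 8 libraries. Without S47 it was -0.52 with an edgeR adjusted p of 0.0159. Vnn1 and Vnn3 share none of their 50-base words with each other or with another gene in the GENCODE transcripts searched.

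Nudt7, at chr8:114860297-114881479 on the plus strand, measured 499, 394, 387 and 279.9 CPM in fasted control livers. In fasted LKO livers it measured 271, 216, 267 and 135 CPM. The highest LKO library, S44, lay just under the lowest control library, S43, so the groups met without overlapping. The log2 difference was -0.81 (SE 0.24), with an edgeR adjusted p of 0.0362. Nudt19, the other peroxisomal hydrolase of this set, best known from kidney, measured 40.5, 41.1, 50.7 and 46.8 CPM against 40.9, 39.0, 37.9 and 36.4 CPM. The lowest control, S40, lay just below the highest LKO library, S44, and the log2 difference was -0.21 (SE 0.13). Nudt19 counts are uncertain, since 33.3% of its 50-base words are shared with an antisense transcript, B230322F03Rik, which itself had 39 counts in all libraries against 13633 for Nudt19.

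The 3 called genes were also the 3 whose fasted groups did not overlap, against 16.9% of all genes. With each of the 8 libraries left out in turn, Ppcs was called in all 8 fits, Vnn1 in 4 (lost without S40, S43, S44 or S46, highest edgeR adjusted p 0.0913) and Nudt7 in 3 (lost without S40, S41, S42, S45 or S47, highest 0.114). With the fit limited to the 8 fasted libraries, Vnn1 was still called, while the edgeR adjusted p was 0.0570 for Ppcs and 0.0550 for Nudt7.

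**Figure D3:**
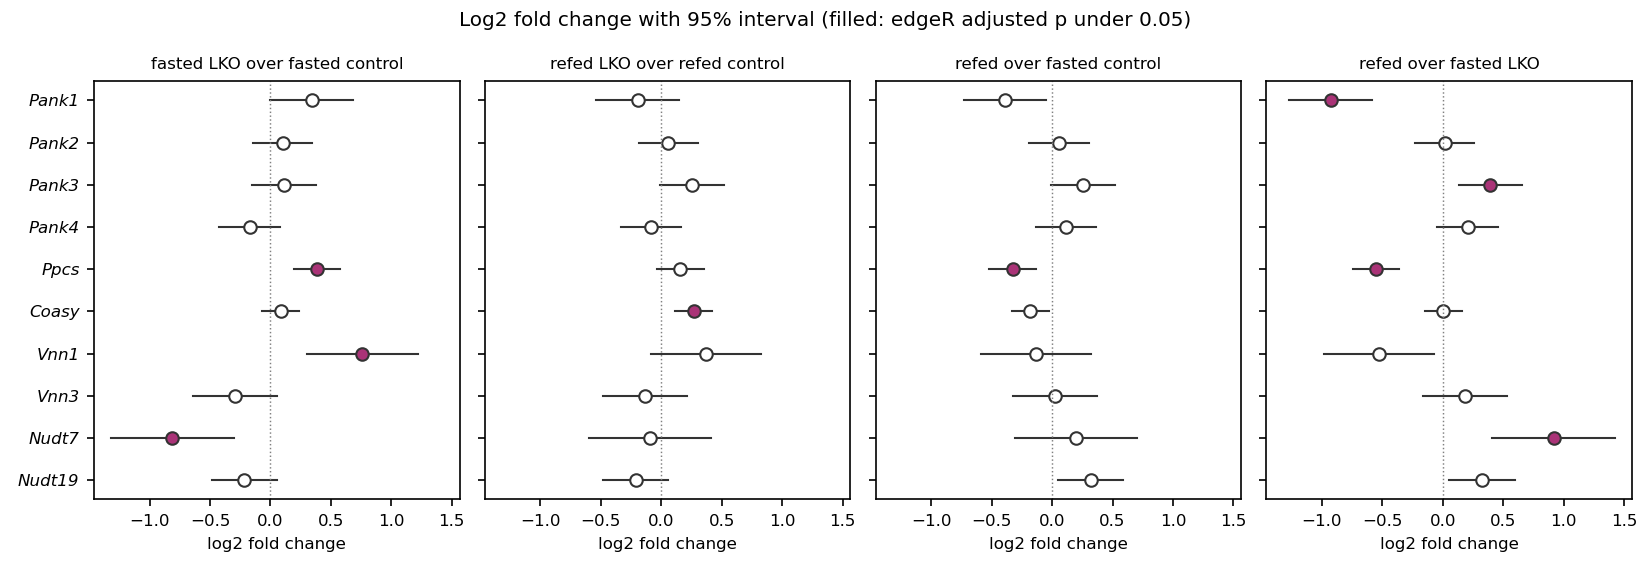
Log2 fold change of each gene with its 95% interval in 4 comparisons; filled points have an edgeR adjusted p under 0.05. Filled points number 3 for genotype in the fasted state, 1 for genotype in the refed state, 1 for refeeding of control mice and 4 for refeeding of LKO mice.

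After refeeding, Coasy was the only gene of the 10 that passed between genotypes, at 1.21-fold higher in LKO livers. This was 1 of 10 against 3.63% of all genes called (2.28% called higher). Coasy measured 146, 158, 140.02 and 164 CPM in refed control livers. In refed LKO livers it measured 185, 197, 178 and 174 CPM. Every LKO library lay above every control library. On the log2 scale the difference was 0.27 (SE 0.07), with an edgeR adjusted p of 0.0488. Of the cell type markers, Ly6c2 of recruited macrophages was also higher in refed LKO livers, by 1.63 (SE 0.40) on the log2 scale. Clec4g of endothelial cells was higher by 0.44 (SE 0.11). Their lists were split: 4 of 7 recruited macrophage markers had higher and 3 lower estimates, and 2 of 6 endothelial markers higher and 4 lower. Summed recruited macrophage markers were 98.8 to 174 CPM in refed control and 82.4 to 124 CPM in refed LKO livers. Summed endothelial markers were 110 to 175 CPM and 131 to 175 CPM. The part of these markers in the result was not tested.

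Ppcs was the other gene whose refed groups did not overlap, 2 of 10 against 11.7% of all genes. It measured 34.5, 35.1, 36.6 and 39.98 CPM in refed control livers. In refed LKO livers it measured 40.2, 40.9, 39.98 and 41.6 CPM, a tight set that began at the level of the highest control library: S51 and S54 are equal as printed and differ only in later digits. The log2 difference of 0.16 (SE 0.09) did not pass (edgeR adjusted p = 0.393).

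For Vnn1 the refed groups differed mostly in spread. The gene measured 112, 78.3, 183 and 202 CPM in refed control livers. In refed LKO livers it measured 171, 189, 187 and 193 CPM. Control libraries S48 and S49 were low and S50 and S51 lay among or above the LKO libraries, and the log2 difference of 0.37 had a 95% interval from -0.09 to 0.82. The summed markers of resident macrophages ran from 205 to 802 CPM in the refed controls and from 217 to 321 CPM with the knockout. Library S49 held the highest such sum and the lowest Vnn1 level. All 7 of these markers had lower estimates in refed LKO livers and 0 were called, and their part in the result was not tested.

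Nudt7 measured 406, 297, 433 and 654 CPM in refed control livers. In refed LKO livers it measured 391, 514, 355 and 417 CPM, all inside the control range. The log2 difference was -0.09, with a 95% interval from -0.60 to 0.41. Pank1 measured 109.9, 127, 159 and 173 CPM against 104, 134, 127 and 132 CPM, overlapping, with a log2 difference of -0.20 (SE 0.16). Pank3 measured 31.4, 43.8, 33.4 and 37.9 CPM against 37.7, 46.8, 38.8 and 51.2 CPM. Its LKO libraries reached higher but overlapped the controls, and the log2 difference of 0.25 had a 95% interval from -0.01 to 0.51. Pank2, Pank4, Vnn3 and Nudt19 had log2 differences of 0.06, -0.08, -0.14 and -0.21, with adjusted p from edgeR between 0.406 and 0.842.

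The median log2 fold change was -0.01 over the 10 genes and -0.01 over all genes. The Coasy call rested on the full set of libraries: it held in 1 of 8 fits with a library left out (without S51) and was lost without S48, S49, S50, S52, S53, S54 or S55, with edgeR adjusted p up to 0.136. It was also lost in the fit of the 8 refed libraries alone (edgeR adjusted p = 0.107) and without a filter on low counts (0.103).

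Refeeding of control mice went with lower Ppcs and no other passing difference. Ppcs in refed control livers was at 0.799 times its fasted level, 1 of 10 genes called against 15.4% of all genes (7.65% called lower). The 4 refed libraries, at 34.5 to 39.98 CPM, lay below the 4 fasted ones, at 43.7 to 46.9 CPM. Its difference on the log2 scale was -0.32 (SE 0.09), with an edgeR adjusted p of 0.0256. Coasy also had no overlap, 2 of 10 with Ppcs against 20.4% of all genes. Its log2 difference was -0.18 (SE 0.07), with an edgeR adjusted p of 0.105. Pank1 had a log2 difference of -0.39 (SE 0.16, edgeR adjusted p = 0.112) and Nudt19 one of 0.32 (SE 0.13, edgeR adjusted p = 0.102). Vnn1 and Nudt7 differed by -0.13 (SE 0.21) and 0.20 (SE 0.24) on the log2 scale, with wide overlap. The medians were 0.04 over the 10 genes and 0.01 over all genes. Of the cell type markers, Lrat and Reln of stellate cells were higher in refed controls, by 0.95 (SE 0.20) and 0.39 (SE 0.12) on the log2 scale. Their list was split, with 3 of 7 estimates higher and 4 lower, and a median of -0.30. The part of these markers in the result was not tested. The Ppcs call held in 2 of 8 fits with a library left out and was lost without S40, S42, S43, S48, S49 or S50, with edgeR adjusted p up to 0.0753.

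On refeeding of LKO mice 4 genes passed: Pank1 and Ppcs fell, and Pank3 and Nudt7 rose. Pank1, the main kinase gene of liver, fell to 0.526 times its fasted level and Ppcs to 0.681 times, while Pank3 rose 1.31-fold and Nudt7 rose 1.89-fold. These were 4 of 10 genes called against 18.1% of all genes, with 2 higher against 9.28% and 2 lower against 8.78%. This comparison shares its fasted LKO libraries with the fasted genotype comparison and its refed LKO libraries with the refed one, so a high or low value in either group enters both. Of the cell type markers 1 was called here, Krt19 of bile ducts, which fell by 2.53 (SE 0.85) on the log2 scale. All 5 bile duct markers tested had lower estimates in refed LKO livers, with a median of -0.96. Their summed level overlapped, at 33.5 to 81.0 CPM in fasted LKO and 34.5 to 38.5 CPM in refed LKO livers. The part of these markers in the results was not tested.

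Pank1 was at 180.3 to 281 CPM in fasted LKO and 104 to 134 CPM in refed LKO livers, with a wide gap between the groups. The log2 difference was -0.93 (SE 0.16), with an edgeR adjusted p of 0.00105. Ppcs was at 51.2 to 70.8 CPM before and 39.98 to 41.6 CPM after refeeding. Its log2 difference was -0.55 (SE 0.09), with an edgeR adjusted p of 6.8e-04.

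Pank3 encodes a kinase isoform strongly inhibited by acetyl coenzyme A. It was at 27.5 to 36.8 CPM in fasted LKO and 37.7 to 51.2 CPM in refed LKO livers, so the groups were separated by under 1 CPM. On the log2 scale the difference was 0.39 (SE 0.12), with an edgeR adjusted p of 0.0362. Nudt7 was at 135 to 271 CPM in fasted LKO and 355 to 514 CPM in refed LKO livers, well apart. Its log2 difference was 0.92 (SE 0.24), with an edgeR adjusted p of 0.0148.

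Vnn1 did not overlap either, at 252 to 285 CPM fasted and 171 to 193 CPM refed, which made 5 of 10 genes against 20.6% of all. Its log2 difference of -0.53 (SE 0.21) had an edgeR adjusted p of 0.104 in the fit of all 16 libraries, and of 0.00390 in the fit of the 8 LKO libraries alone. Nudt19 differed by 0.32 (SE 0.13, edgeR adjusted p = 0.0932), Pank4 by 0.20, Vnn3 by 0.19, Pank2 by 0.02 and Coasy by 0.00 on the log2 scale.

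The medians were 0.10 over the 10 genes and -0.02 over all genes. Pank1, Ppcs and Nudt7 were called in all 8 fits with an LKO library left out. Pank3 was called in 4 and lost without S44, S47, S53 or S55 (highest edgeR adjusted p 0.129), and was at 0.0599 in the fit of the LKO libraries alone. Without S47, Vnn3 had a log2 difference of 0.41 with an edgeR adjusted p of 0.0411.

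Whether the genotype difference itself depended on the feeding state was tested as an interaction, the difference in the refed state minus that in the fasted state. No gene of the 10 passed (0 of 10, against 0.538% of all genes), and DESeq2 and limma-voom also called 0. At an unadjusted p under 0.05 there were 2 of 10, against 16.5% of all genes. Pank1 had an interaction of -0.54 (SE 0.23, edgeR adjusted p = 0.247) and Nudt7 one of 0.72 (SE 0.34, edgeR adjusted p = 0.301). For Vnn1 it was -0.39 with a 95% interval from -1.03 to 0.25, and for Ppcs -0.23 with one from -0.50 to 0.04. So Ppcs, Vnn1 and Nudt7 passed between genotypes in fasted livers and not in refed ones, but a difference between the states was not shown for any of them. The interaction is equally the refeeding difference in LKO mice minus that in controls. For Pank3 it was 0.14 (SE 0.18, edgeR adjusted p = 0.731). More genes passed on refeeding of LKO mice than of controls, but the refeeding responses were not shown to differ for any of the 10.

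**Figure D4:**
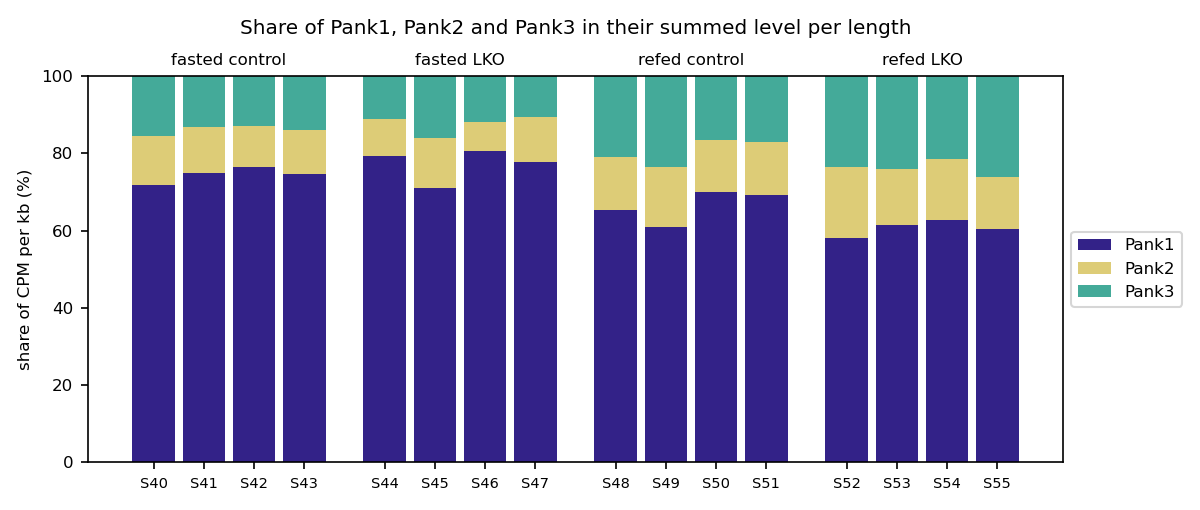
Share of Pank1, Pank2 and Pank3 in their summed CPM per kb (percent, y axis) in each library. Pank1 holds 58.0 to 62.6% in the refed LKO libraries and 71.1 to 80.6% in the fasted LKO libraries.

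The 3 active kinase genes can be set side by side per length. Pank1 made up 74.5 ± 1.92% of the summed CPM per kb of Pank1, Pank2 and Pank3 in fasted control livers and 77.1 ± 4.18% in fasted LKO livers. After refeeding it made up 66.4 ± 4.14% in control and 60.7 ± 1.94% in LKO livers. The refed ranges, 61.0 to 70.0% and 58.0 to 62.6%, lay below the fasted ranges, 71.8 to 76.4% and 71.1 to 80.6%, in each genotype. The sum itself was 30.3 ± 4.10 and 36.9 ± 5.10 CPM per kb in the fasted control and LKO groups, and 25.8 ± 4.20 and 24.8 ± 2.28 CPM per kb in the matching refed groups. The share is made from the same values as the folds above and was not tested separately. It describes transcripts per length and not enzyme activity, and Pank2 counts carry the uncertainty given above.

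**Figure D5:**
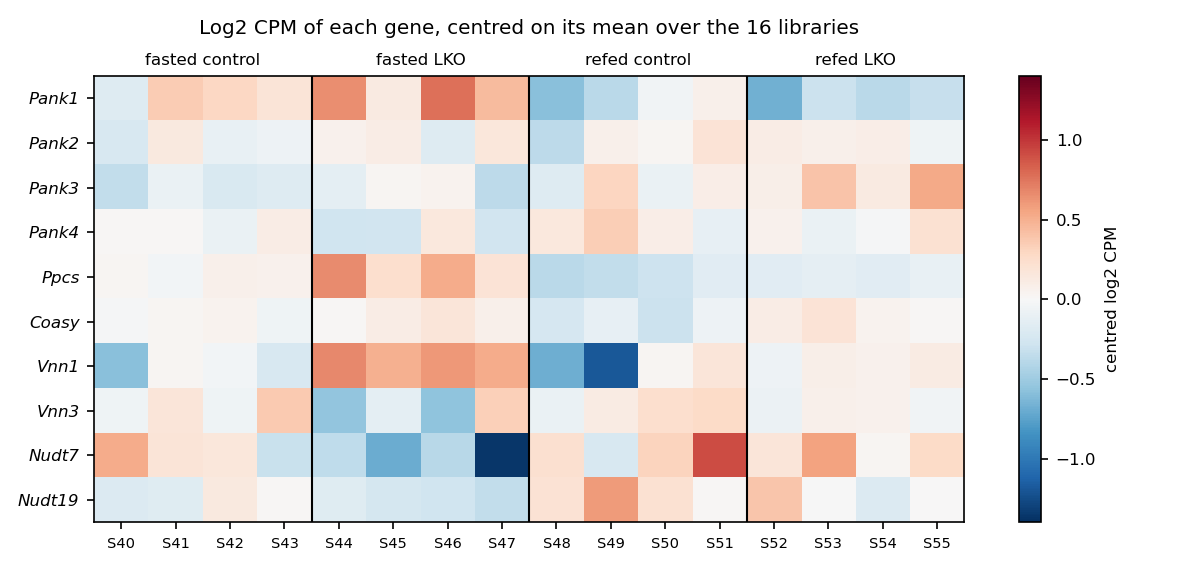
Log2 CPM of each gene minus its mean over the 16 libraries, with libraries in columns and a colour scale in log2 units. Fasted LKO columns are red for Pank1, Ppcs and Vnn1 and blue for Nudt7; S47 is the bluest for Nudt7 and, unlike S44 and S46, red for Vnn3.

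In all, 6 of the 10 genes (Pank1, Pank3, Ppcs, Coasy, Vnn1 and Nudt7) were called in at least 1 of the 5 tests, against 33.4% of all genes, and 4 (Pank2, Pank4, Vnn3 and Nudt19) in none. The tests share libraries. Pank2 and Pank4 had group means from 17.3 ± 1.82 to 18.7 ± 1.02 CPM and from 10.8 ± 1.70 to 13.2 ± 1.71 CPM. Nudt19 had its lowest group mean in fasted LKO livers, 38.6 ± 1.92 CPM, and its highest in refed control livers, 55.8 ± 9.78 CPM.

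In the authors' deposited table for the fasted genotypes, the same 3 genes have adjusted p under 0.05: 5.8e-06 for Vnn1, 0.0055 for Nudt7 and 0.033 for Ppcs. Their deposited table for the refed genotypes gives Coasy 0.040, and that for refeeding of controls gives Ppcs 0.0038. For refeeding of LKO mice, the authors' deposited table gives Vnn1 a log2 fold change of -0.52 with an adjusted p of 1.5e-07, a gene that did not pass in the edgeR fit of all 16 libraries. Their log2 fold changes for Pank1, Ppcs, Nudt7 and Pank3 there are -0.92, -0.55, 0.92 and 0.40.

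Of 12 other genes of the pathway, on a list chosen with earlier results of these data known, 11 were tested. Nudt8, a mitochondrial hydrolase gene, had group means of 0.05 to 0.37 CPM and was not tested. None of the 11 was called between genotypes in edgeR, fasted or refed (0 of 11 in both, against 12.2% and 3.63% of all genes). That list covers pantothenate uptake (Slc5a6), the decarboxylase (Ppcdc), a kinase-like gene (Dcakd), carriers (Slc25a16, Slc25a17 and Slc25a42), the phosphopantetheine transferase Aasdhppt, and Enpp1, Enpp3, Acp1 and Ado. In refed against fasted controls 1 of 11 was called, against 15.4% of all genes. This was Slc5a6, the sodium-dependent vitamin transporter, which fell from 19.5 ± 3.53 to 9.42 ± 4.71 CPM (log2 -1.05, SE 0.29). In refed against fasted LKO livers 2 of 11 were called, against 18.1% of all genes. Slc25a42, the mitochondrial coenzyme A carrier, fell from 227 ± 13.1 to 116 ± 20.9 CPM (log2 -0.96, SE 0.16). Slc25a17, a peroxisomal carrier of coenzyme A and related nucleotides, rose from 40.5 ± 6.29 to 56.8 ± 9.48 CPM (log2 0.49, SE 0.13). The interaction called 0 of 11, against 0.538% of all genes. The medians of the 11 were -0.01, 0.05, 0.03 and 0.03 in the fasted genotype, refed genotype, control refeeding and LKO refeeding comparisons. The control count was 0 without S40, S48 or S49 and 2 without S51, and the LKO count was 1 without S44 or S52.

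Vnn1 can be set beside other genes known as targets of PPARA. The list was chosen with earlier results of these data known, so its shares are a description and not an independent test. Of the 24 PPARA targets listed outside the 10, 19 were higher and 0 lower in fasted LKO livers, against 5.75% and 6.48% of all genes. Their median log2 difference was 0.88, beside 0.76 for Vnn1. In refed livers 7 of 24 were higher, against 2.28% of all genes, and 0 lower, with a median of 0.54, beside 0.37 for Vnn1, which did not pass. On refeeding of LKO mice 12 of 24 fell and 0 rose, against 8.78% and 9.28% of all genes, with a median of -0.45, beside -0.53 for Vnn1, which did not pass there. On refeeding of controls 1 of 24 fell, against 7.65% of all genes, with a median of -0.23. Of 12 other genes tested, either peroxisomal or of the Nudix family and listed in the same way, 0 were lower in fasted LKO livers, against 6.48% of all genes. The 2 that were higher, against 5.75%, were Hsd17b4, a peroxisomal oxidation enzyme, and Nudt18. Between the refed genotypes 2 of 12 were higher (Hsd17b4 and Nudt9), against 2.28%. On refeeding 2 of 12 were called in controls (Nudt5 higher, Nudt16 lower) and 1 in LKO mice (Nudt2, higher), against 15.4% and 18.1%.

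The genes most like each called gene were found by the root mean square difference between log2 CPM, each centred on its mean, over the 16 libraries and 8885 candidate genes. This is a description over samples that share their groups. Ppcs was most like Spg21 (0.089), Rabggtb (0.107) and Rrp36 (0.116), against an SD of 0.290 for Ppcs itself. Vnn1 was most like Palmd (0.208), Pex11a (0.212) and Abcb4 (0.219), against an SD of 0.495. Pex11a encodes a peroxisome membrane protein and stood on the list of PPARA targets. For Nudt7 the nearest were Lifr (0.285), Keg1 (0.301) and C8a (0.309), against an SD of 0.546. Pank1 was nearest to Bag4 (0.1499), Pik3ap1 (0.166) and Nipal3 (0.172), against an SD of 0.430. Coasy was nearest to Suclg1 (0.072), Isca2 (0.078) and Psme1 (0.079), against an SD of 0.133. Pank3 was nearest to Rpf1 (0.128), Set (0.138) and Dkc1 (0.138), against an SD of 0.254.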

How the data were processed

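RNA was measured in 16 liver libraries. Libraries were made with random hexamers and dUTP from mRNA captured on poly-T beads, per the labels. HISAT2 2.0.5 and build mm39 are named, without a role, per the submitters' processing notes; the counting tool, strand setting and annotation are not given in the sources used here. The authors deposited 4 tables of 8 libraries with raw counts per gene, their own log2 fold changes (sign turned so that LKO or refed is the numerator), p-values and adjusted p-values, and other gene annotation such as gene length in bases. Gene coordinates are those of the deposited tables. A further 64 per-library columns were not used.

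Each library's group came from the heading shared by the 2 tables that hold it. Joining by gene identifier gave 25803 genes; 0 counts differed between tables, and 3148 genes absent from a library's tables were set to 0 there. All 24 pairs of replicates differed beyond sampling noise (chi-square per degree of freedom 15.43 to 78.49). The labels name separate samples only, so p-values measure the spread between these samples.

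In R 4.3.3, edgeR 4.0.16 fitted 14488 genes passing filterByExpr (TMM factors 0.941 to 1.07, quasi-likelihood, 4 groups as 1 factor, biological coefficient of variation 0.185), with 5 contrasts and Benjamini-Hochberg adjustment over all genes tested; a gene is called at an adjusted p under 0.05. The fit was tested on simulated data. Alternatives used limma 3.58.1 (voom), DESeq2 1.42.0, other scalings and filters, fewer libraries and fits without each library. Genes named outside the 10 are the members of lists and, for each called gene, the 3 most like it among protein-coding genes with a mean of at least 5 CPM (prior count 2). Members and lists were chosen with earlier results of these data known. RefSeq sequences are on GRCm38.p6, whose coordinates are not those of the tables.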

Additional observations from a re-analysis of the deposited data

Results flagged for a closer look

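Pank4 in fasted LKO livers had 1 library apart from the rest. Library S46 measured 13.3 CPM while S44, S45 and S47 measured 9.88 to 10.01 CPM, so the gap was 0.962 of the whole range, above Dixon's critical value at the 95% level for 4 samples. Among 40 combinations of gene and group checked, this was the only one, and chance alone gives about 1 in 20.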

How the results depend on the processing

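Each of the 50 log2 fold changes (10 genes in 5 tests) was recomputed under each alternative, 820 values in all. Of these, 753 kept direction and side of the threshold, 32 fell short of it, 6 newly passed it and 29 changed sign; 0 of the values that changed sign passed the threshold. The count of called genes in the fasted genotype comparison was 1 with only the 2 groups compared, and 1 to 3 with a library left out. In the refed genotype comparison it was 0 without a filter on low counts and 0 with only the 2 groups, and 0 to 1 with a library left out. For refeeding of controls it was 2 with DESeq2 (Coasy added, adjusted p 0.0496) and 0 without a filter, and 0 to 2 with a library left out. For refeeding of LKO mice it was 3 to 5 with a library left out, and for the interaction 0 to 0. Over all genes, DESeq2 called 924 in the refed genotype comparison against 526, and 458 in the interaction against 78, where the filter at a mean of 5 CPM called 197. With a library left out, those totals ran from 1048 to 1985 (1772 with all) for the fasted genotypes, 197 to 517 for the refed, 1220 to 2483 (2238 with all) for control refeeding, 1795 to 2448 (2616 with all) for LKO refeeding and 8 to 282 for the interaction. The values that changed sign, given as log2 differences, were of genes that had not passed in the comparison concerned. With a library left out, Coasy on LKO refeeding ran from -0.030 to 0.032 (-0.0064 with the 5 CPM filter, -0.016 with upper quartile factors) and the Nudt19 interaction from -0.12 to 0.13 (-0.0022 with limma-voom, -0.017 with upper quartile factors). Pank2 ran from -0.052 to 0.058 on LKO refeeding (-0.0069 with upper quartile factors), from -0.011 to 0.16 on control refeeding, from -0.044 to 0.13 in the refed genotypes and from -0.15 to 0.027 in the interaction. Nudt7 ran from -0.25 to 0.15 in the refed genotypes and from -0.042 to 0.35 on control refeeding; the ends 0.15 and -0.042 are those without S51. On control refeeding Vnn1 ran from -0.34 to 0.070 and Vnn3 from -0.030 to 0.12. Nudt19 passed on control refeeding without S51 (edgeR adjusted p 0.0486) and on LKO refeeding without S54 (0.0489). The causes were not tested. No paired analysis was possible because the count columns carry no replicate number.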

Other observations

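Enzymes that load acyl groups onto coenzyme A, release them or move them to carnitine were also measured, on lists chosen with earlier results known. Of 11 acyl-CoA thioesterases tested, which free coenzyme A from its acyl esters, 6 were higher and 1 lower in fasted LKO livers, against 5.75% and 6.48% of all genes tested. Acot1 and Acot2, near-identical copies whose reads could be split between them, differed by 1.89 (SE 0.33) and 2.19 (SE 0.32) on the log2 scale, and Acot11 by -1.84 (SE 0.28). In refed LKO livers 1 was higher (Acot8, 0.50) and 1 lower (Acot11, -1.59), 2 of 11 against 3.63% of all genes. On refeeding of LKO mice 7 fell and 1 rose, against 8.78% and 9.28% of all genes, and on refeeding of controls 2 fell, against 7.65%. Acot3 and Acot4 passed the interaction, at -2.05 (SE 0.40) and -1.21 (SE 0.25), 2 of 11 against 0.538% of all genes.

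Of 12 acyl-CoA synthetases tested, 3 were higher (Acsl1, Acsl5 and Slc27a2) and 2 lower (Acsm5 and Slc27a5) in fasted LKO livers, against 5.75% and 6.48% of all genes. Between the refed genotypes 0 of 12 passed, against 3.63%. On refeeding of controls 2 rose (Acsl3 and Acsl4) and 2 fell (Slc27a4 and Slc27a5), 4 of 12 against 15.4% of all genes. On refeeding of LKO mice 2 rose (Acsl3 and Acss2) and 4 fell (Acsl1, Acsl5, Slc27a2 and Slc27a4), 6 of 12 against 18.1%. Acsl3 rose on refeeding in both genotypes, by 1.28 (SE 0.23) in control and 1.42 (SE 0.23) on the log2 scale in LKO livers. Of 6 carnitine and glycine acyltransferases and carriers, 4 were higher in fasted LKO livers, against 5.75% of all genes, and 0 passed in refed ones. On refeeding 1 fell in controls (Crot), against 7.65%, and 4 fell in LKO mice, against 8.78%. Crat, which swaps short acyl groups between coenzyme A and carnitine, was at 154 ± 23.1 CPM in fasted control and 319 ± 38.2 CPM in fasted LKO livers, and at 126 ± 9.24 and 146 ± 16.8 CPM after refeeding; its interaction of -0.83 (SE 0.17) passed, 1 of 6 against 0.538%. Of 7 genes of cysteine and taurine metabolism, 0 passed in fasted LKO livers, against 12.2% of all genes. After refeeding 1 of 7 was lower in LKO livers, against 3.63% called in either direction: Slc6a6, the taurine transporter, at -0.56 (SE 0.15) on the log2 scale. On refeeding 1 of 7 was called in each genotype, against 15.4% and 18.1%. This was Cdo1, the cysteine dioxygenase, which fell in controls by 0.71 (SE 0.15) and in LKO mice by 0.46 (SE 0.15).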
